A study of Homo sapiens with 6 samples.

Results

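Genes that act in, or are transcribed by, the insulin and FOXO pathway were followed through the knockdown of PAIP1 in HepG2 cells. They were IGFBP1, C10orf10, PPARGC1A, IRS2, PCK1, G6PC, PDK4, TXNIP, FOXO1 and FOXO3, taken by exact match of their symbol in the gene tables, and all 10 were found among the 30987 genes of the count table. HepG2 cells, an established line of human liver cancer origin, were grown in medium with fetal bovine serum and transfected either with siRNA3 against PAIP1 (siPAIP1) or with a control siRNA that has no target (Ctrl), and harvested 48 h later. Each group had 3 biological replicates, from which polyadenylated RNA was sequenced in pairs of reads. The knockdown therefore rests on 1 siRNA in 1 cell line, and PAIP1 mRNA was lowered, not removed. PAIP1, which binds the poly(A) binding protein and stimulates translation, had 26.83, 22.96 and 26.01 FPKM (fragments per kilobase of exon, scaled to the mapped fragments of the library) in Ctrl and 8.29, 6.54 and 5.47 FPKM in siPAIP1.

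Insulin binds its receptor and, through IRS1 or IRS2, PI3-kinase and AKT, leads to the phosphorylation of the FOXO factors, which are then held in the cytoplasm by 14-3-3 proteins. Without insulin the FOXO factors stay in the nucleus and, in hepatocytes, drive genes of fasting such as IGFBP1, PCK1 and G6PC, with PPARGC1A as a coactivator. IGFBP1 is among the liver genes most sharply repressed by insulin. It encodes a secreted protein that binds insulin-like growth factors.

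The 10 genes were picked with results of siPAIP1 against Ctrl known. IGFBP1 and C10orf10 were among the largest falls of that comparison, and the rest were added as genes of the same pathway. Their changes are therefore given as a description and without p-values. The intervals give the uncertainty of the fitted group difference, using variation between libraries that is estimated partly from all genes. The word called, used of a member, only places it in the fit over all genes and is no test of it. Library totals ran from 29313211 to 34659866 counts, so 3 counts, used here as the floor of detection, equalled 0.0858 to 0.0995 CPM (counts scaled to the TMM-adjusted library size). The library labelled siPAIP1 replicate 3 stood apart. Of 9247 genes with a mean CPM of at least 10, 357 exceeded by over 2-fold what the rest of its own group averaged, against 0 to 7 such genes in any other library. For the members that move with it and for the counts of called genes in the lists, values without it are given too.

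Promoter windows of 3 genes are shown because they hold, or lack, an exact copy of the FOXO consensus. C10orf10 and G6PC were called lower after the knockdown, and TXNIP was not called. The windows come from RefSeq on GRCh38.p14 and run from 250 bases before the start of transcription to 50 bases after it. They are printed along the strand of the gene. Capitals mark GTAAACA, the consensus bound by FOXO factors, and TATAAA, the core of the TATA box. C10orf10 (DEPP1 in current nomenclature) is at chr10:44978760-44979059 on the minus strand, TXNIP at chr1:145996530-145996829 on the minus strand, and G6PC (now G6PC1) at chr17:42900549-42900848 on the plus strand.
C10orf10: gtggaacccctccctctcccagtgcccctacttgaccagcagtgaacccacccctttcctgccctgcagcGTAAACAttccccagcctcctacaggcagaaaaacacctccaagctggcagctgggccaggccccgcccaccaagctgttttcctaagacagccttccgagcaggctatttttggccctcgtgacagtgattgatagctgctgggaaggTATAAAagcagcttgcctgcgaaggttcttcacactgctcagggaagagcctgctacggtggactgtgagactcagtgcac
TXNIP: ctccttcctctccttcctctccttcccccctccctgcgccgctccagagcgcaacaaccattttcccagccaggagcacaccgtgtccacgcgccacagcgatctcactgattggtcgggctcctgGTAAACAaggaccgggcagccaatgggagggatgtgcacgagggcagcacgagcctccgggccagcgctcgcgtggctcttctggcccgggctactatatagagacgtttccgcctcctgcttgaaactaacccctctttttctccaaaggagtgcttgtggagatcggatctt
G6PC: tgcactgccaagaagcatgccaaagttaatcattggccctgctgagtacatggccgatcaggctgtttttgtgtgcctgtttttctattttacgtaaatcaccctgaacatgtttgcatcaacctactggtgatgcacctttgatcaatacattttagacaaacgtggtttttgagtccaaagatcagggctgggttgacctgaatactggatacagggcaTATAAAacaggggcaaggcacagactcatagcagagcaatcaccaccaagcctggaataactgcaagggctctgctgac

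Both strands of the windows were searched for GTAAACA, for ATAAACA and CAAAACA (variants of the FOXO consensus and of the insulin response sequence), for the E-box CACGTG and for TATAAA. Of the 10 genes, 8 had a window in the RefSeq table, 13 windows in all, and IGFBP1 and PCK1 had none. GTAAACA was found in C10orf10 at -180 to -174 and in TXNIP at -124 to -118, and 3.42% of all 35116 windows hold it. ATAAACA was found in FOXO3 at -234 to -228 (4.24% of all windows) and CAAAACA in IRS2 at -40 to -34 on the opposite strand (4.92%). CACGTG was found in PPARGC1A at -123 to -118 (7.26%), in a window at chr4:24472856-24473155 that lies outside the gene span given below, and the other PPARGC1A window, at chr4:23881052-23881351, did not hold it. TATAAA was found in C10orf10 at -31 to -26 and in G6PC at -29 to -24 (11.5%). None of these matches overlapped another. The windows of PPARGC1A, G6PC, PDK4 and FOXO1 held none of the 3 FOXO-related words. These matches are letters in a window and say nothing of binding. Only these exact words were searched, so a window without them may still hold other FOXO-type sites.

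The antisense strand of siRNA3 is shown because its bases 2 to 8, in capitals, are the seed through which a small RNA can also lower transcripts other than its target.
siRNA3 antisense strand: uAUCAUCCaaguauggauctt
The match to this seed, GGATGAT, was absent from the annotated 3′UTRs of all 10 genes, while 1507 of 19229 protein-coding genes (7.84%) carried it in theirs.

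IGFBP1 (chr7:45888360-45893660, plus strand) was the most abundant of the 10 genes and was sharply lower in siPAIP1. It had 164, 172 and 163 CPM in Ctrl and 50.1, 49.5 and 45.4 CPM in siPAIP1. The replicates of each group lay close together, and the highest siPAIP1 library was far below the lowest Ctrl library. The mean was 166 ± 4.96 CPM (SD, n = 3) in Ctrl and 48.4 ± 2.56 CPM (SD, n = 3) in siPAIP1, or 29.1% of Ctrl. The fitted log2 fold change was -1.78 (SE 0.073, 95% interval -1.95 to -1.61), rank 30 from the lowest of the 15528 genes tested. Per length the gene went from 88.63, 92.42 and 89.93 FPKM to 28.49, 28.40 and 23.57 FPKM.

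C10orf10 (chr10:44970981-44978809, minus strand), an intracellular protein encoded by a FOXO-induced gene, was lower by a similar factor from a lower level. It had 25.7, 26.6 and 23.4 CPM in Ctrl and 7.72, 6.26 and 7.10 CPM in siPAIP1. No siPAIP1 library came near the Ctrl range, and the mean in siPAIP1 was 27.9% of Ctrl. The log2 fold change was -1.84 (SE 0.11, 95% interval -2.09 to -1.60). The gene shares 695 exon bases with RASSF4 on the opposite strand, and the sources used here do not say whether counting used strand, so reads of the pair cannot be told apart. RASSF4, named here after its values were seen, had 2880, 2833 and 2824 counts in Ctrl and 2155, 1957 and 1708 counts in siPAIP1, a log2 fold change of -0.59 (SE 0.077). It held more counts than C10orf10 and was lower by a smaller factor. Other members share exon bases too. FOXO1 shares 1352 with the long non-coding RNA ENSG00000288542 on the same strand. IRS2 shares 115 with the long non-coding RNA ENSG00000275741 on the opposite strand. Neither RNA is in the count table, and how reads of these stretches were assigned is not known.

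**Figure D1:**
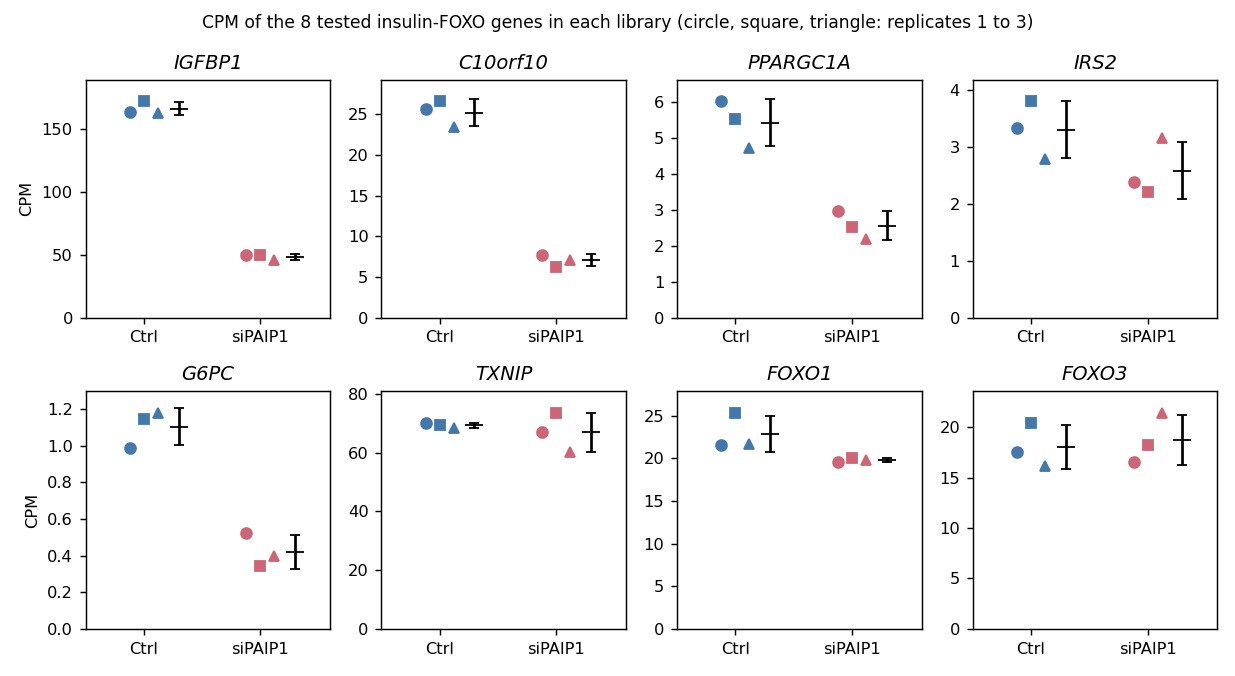
CPM of the 8 tested genes in each library, with an axis from 0 for each gene. Circles, squares and triangles are replicates 1 to 3, and the black mark with its bar is the group mean with its SD (n = 3). IGFBP1, C10orf10, PPARGC1A, G6PC and FOXO1 have all siPAIP1 libraries below all Ctrl libraries, while IRS2, TXNIP and FOXO3 overlap.

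Among the genes of hepatic glucose output, PPARGC1A and G6PC were lower in siPAIP1 and PCK1 was too low to be compared. PPARGC1A (chr4:23755041-23904089, minus strand), the coactivator that works with FOXO1 on gluconeogenic genes, had 6.02, 5.52 and 4.73 CPM in Ctrl and 2.97, 2.52 and 2.19 CPM in siPAIP1. The groups did not overlap, and the fitted level in siPAIP1 was 47.3% of Ctrl. The log2 fold change was -1.08 (SE 0.16, 95% interval -1.46 to -0.70). With siPAIP1 replicate 3 as the lone siPAIP1 library the log2 ratio to Ctrl was -1.28, and with the other siPAIP1 libraries it was -0.96. Under limma-trend fits on the FPKM values the gene was not called.

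G6PC (chr17:42900797-42914438, plus strand), the catalytic subunit of glucose-6-phosphatase and the last step of glucose release, was counted only 33, 38 and 36 times in Ctrl and 18, 12 and 12 times in siPAIP1. That gave 0.988, 1.15 and 1.18 CPM against 0.525, 0.343 and 0.398 CPM. The ranges were apart, with the fitted level in siPAIP1 at 38.4% of Ctrl, but the low counts left a wide interval around the log2 fold change of -1.38 (SE 0.25, 95% interval -1.96 to -0.79). The gene left the set called lower when any 1 Ctrl replicate or siPAIP1 replicate 2 was left out, and under limma-trend fits on the FPKM values.

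PCK1 (chr20:57561080-57568121, plus strand), the cytosolic phosphoenolpyruvate carboxykinase, had 4, 4 and 6 counts in Ctrl and 1, 1 and 8 counts in siPAIP1. The highest value of the gene was that of siPAIP1 replicate 3, and the other siPAIP1 libraries held 1 count each. PDK4 (chr7:95583499-95596516, minus strand), the kinase that shuts pyruvate dehydrogenase in fasting, had 2, 0 and 0 counts in Ctrl and 1, 3 and 1 counts in siPAIP1. All PDK4 counts lay at or under the floor of 3. Neither gene passed the filter on low counts in any library, and no fold change is given for either.

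IRS2, TXNIP, FOXO1 and FOXO3 were not among the genes called with all 6 libraries. IRS2 (chr13:109752695-109786583, minus strand), the adaptor that carries the insulin signal from the receptor and is itself induced by FOXO, had 3.32, 3.80 and 2.79 CPM in Ctrl and 2.39, 2.20 and 3.15 CPM in siPAIP1. siPAIP1 replicate 3 lay within the Ctrl range and the other siPAIP1 libraries below it. The log2 fold change was -0.36 (SE 0.19, 95% interval -0.81 to 0.094), and -0.53 without siPAIP1 replicate 3, where the gene joined those called lower.

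TXNIP (chr1:145992435-145996579, minus strand), an arrestin-like inhibitor of thioredoxin and of glucose uptake, had 70.0, 69.3 and 68.6 CPM in Ctrl and 67.0, 73.6 and 60.3 CPM in siPAIP1. The Ctrl values lay inside the wider siPAIP1 range. The log2 fold change was -0.048 (SE 0.086, 95% interval -0.25 to 0.15), and without siPAIP1 replicate 3 it was 0.018. TXNIP and C10orf10 share the GTAAACA word in the windows above.

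FOXO1 (chr13:40555667-40666641, minus strand), the main FOXO factor of liver metabolism, had 21.5, 25.3 and 21.7 CPM in Ctrl and 19.6, 20.1 and 19.8 CPM in siPAIP1. The ranges did not overlap, though the gap between them was small, and the log2 fold change was -0.21 (SE 0.088, 95% interval -0.41 to -0.00041). FOXO3 (chr6:108559835-108684774, plus strand), its relative, had 17.6, 20.5 and 16.1 CPM in Ctrl and 16.5, 18.2 and 21.4 CPM in siPAIP1. Its ranges overlapped, with a log2 fold change of 0.052 (SE 0.13, 95% interval -0.25 to 0.35), and the sign turned without siPAIP1 replicate 3 (-0.060) or without Ctrl replicate 3 (-0.029). FOXO3B, a pseudogene close in sequence to FOXO3 and named here after its values were seen, had 10, 5 and 4 counts in Ctrl and 6, 8 and 38 in siPAIP1, the highest again in replicate 3. How its reads and those of FOXO3 were divided is uncertain. FOXO4, another FOXO factor, had 1.40, 1.57 and 1.62 FPKM in Ctrl and 1.58, 1.54 and 2.43 FPKM in siPAIP1, and FOXO6 had at most 0.07 FPKM in any library.

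**Figure D2:**
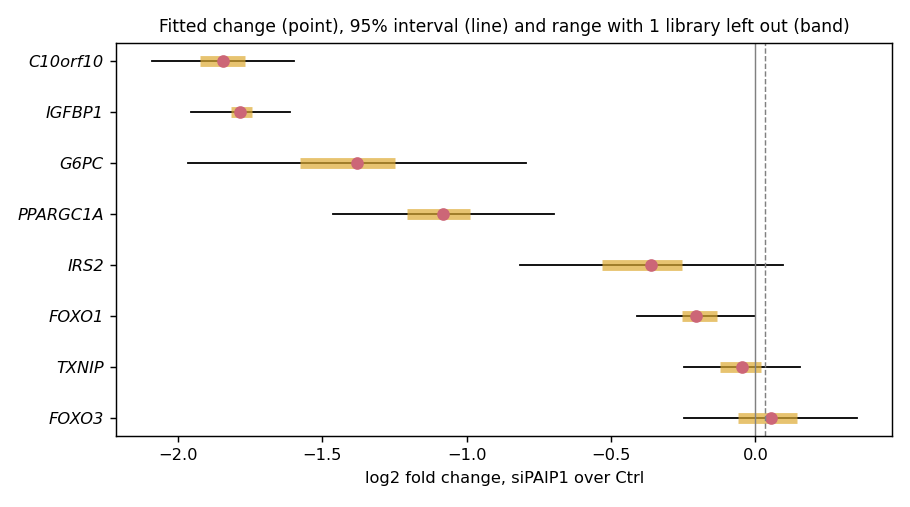
Fitted log2 fold change (siPAIP1 over Ctrl) of the 8 tested genes. Points are the values from all 6 libraries, lines their 95% intervals, bands the range when 1 library is left out, and the dashed line the median of all tested genes (0.034). C10orf10 (-1.84) and IGFBP1 (-1.78) have bands far below 0, and the bands of TXNIP and FOXO3 cross 0.

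Of the 10 genes, 8 entered the fit, each above the filter level in all 6 libraries. At an adjusted p under 0.05 in edgeR's quasi-likelihood test over all genes, 4 of the 8 were called lower (IGFBP1, C10orf10, PPARGC1A and G6PC) and 0 higher, against 6.20% of all tested genes called lower and 5.68% called higher. Without siPAIP1 replicate 3, 5 members were called lower, against 12.4% of all tested genes, and 0 higher, against 11.8%. All siPAIP1 libraries lay below all Ctrl libraries for 5 of the 8 and above for 0, against 17.6% and 19.0% of all tested genes. The median log2 fold change was -0.72 over the 8 and 0.034 over all genes tested. Since the genes were chosen on this comparison, nothing is read from these shares. In bulk RNA, fewer cells that express a gene and less of its RNA per cell cannot be told apart.

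By FPKM, which allows genes of different length to be set side by side, the order of levels in Ctrl was IGFBP1, TXNIP, C10orf10, FOXO1, FOXO3, PPARGC1A, IRS2, G6PC, PCK1 and PDK4. The Ctrl means ran from 90.3 FPKM for IGFBP1 through 19.4 for TXNIP, 10.7 for C10orf10, 3.58 for FOXO1 and 2.10 for FOXO3 to 0.54 for PPARGC1A. IRS2 (0.31 to 0.41 FPKM) and G6PC (0.29 to 0.35 FPKM) overlapped, while every other pair of neighbours had separate Ctrl ranges. PCK1 reached 0.04 and PDK4 0.01 FPKM at most in Ctrl. In siPAIP1 IGFBP1 and TXNIP still had the highest means (26.8 and 19.1 FPKM), but FOXO1 (3.17 FPKM) stood above C10orf10 (3.03 FPKM), with overlapping libraries, and IRS2 (0.29 FPKM) above PPARGC1A (0.26 FPKM), also with overlap. TPM computed from the FPKM values gave all 10 genes the same place in Ctrl.

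No other IGF-binding protein passed the test for a fall. The calls of the pathway list genes named below were repeated under 14 alternatives, which were other scalings, filters and tools, a replicate block, and each library left out in turn. Calls lost under the replicate block are named in the last paragraph. The list of this family, like the lists below, was chosen with earlier results of these data known. Of 11 genes of the family and its ligands, 8 were tested. Of these 3 rose (37.5%, against 5.68% of all genes) and 0 fell (against 6.20%), with a median log2 fold change of 0.36. Without siPAIP1 replicate 3 the counts were the same, against 11.8% and 12.4% of all genes. IGFBP4, a secreted binding protein, went from 38.48, 40.54 and 38.76 FPKM to 59.51, 67.52 and 56.47 FPKM (log2 fold change 0.61, SE 0.075, adjusted p = 0.00469 in edgeR's quasi-likelihood test). IGFBP6 went from 8.28 to 9.05 FPKM in Ctrl to 12.57 to 13.56 FPKM in siPAIP1 (0.54, SE 0.082, adjusted p = 0.00818 in the same edgeR test), a call lost without Ctrl replicate 3. IGFBP7 went from 30.04 to 37.20 FPKM to 42.48 to 51.14 FPKM (0.46, SE 0.088, adjusted p = 0.0186 in edgeR), a call lost without Ctrl replicate 1, Ctrl replicate 2 or siPAIP1 replicate 2 and under both FPKM-based fits. IGFBP2 and IGFBP3 stayed between 0.22 and 0.37 FPKM in every library. IGFBP1 had a higher level than any of them in Ctrl, and in siPAIP1 it lay below IGFBP4 and IGFBP7 in every library. IGF2, the ligand made by fetal liver, varied from 135.67 to 242.59 FPKM within Ctrl alone.

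**Figure D3:**
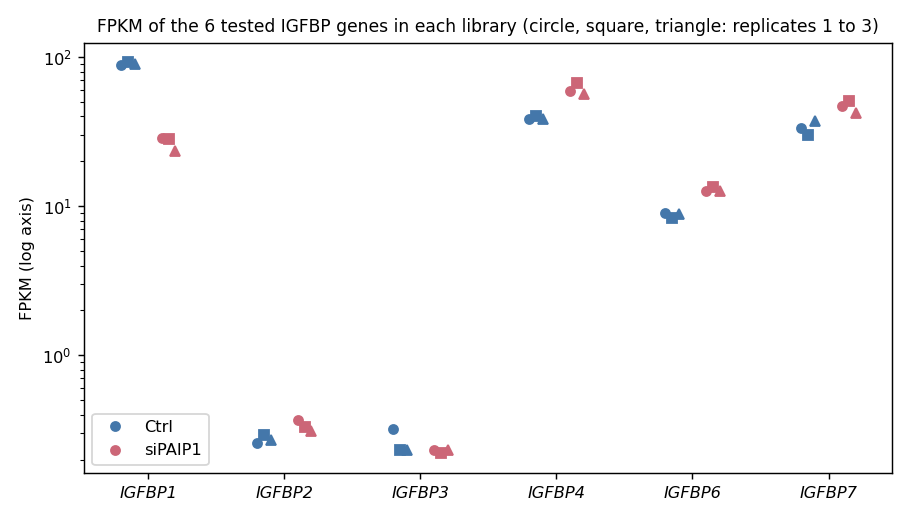
FPKM of the 6 tested IGFBP genes on a log axis, with Ctrl and siPAIP1 in separate colours and circles, squares and triangles for replicates 1 to 3. IGFBP1 falls from about the 90.3 FPKM of its Ctrl mean to 26.8 FPKM, while IGFBP4, IGFBP6 and IGFBP7 lie higher in siPAIP1.

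The wider pathway was read from 12 gene lists that leave out the 10 genes. They held 239 genes, of which 235 were in the count table and 215 were tested. Of these 13 rose (6.05%), 35 fell (16.3%) and 167 did not pass the test, with a median log2 fold change of -0.091. Of all tested genes 5.68% rose and 6.20% fell, so the share that rose was near that of all genes. These counts rest on the libraries used: leaving out siPAIP1 replicate 3 gave 24 higher (11.2%) and 65 lower (30.2%), against 11.8% and 12.4% of all genes, and leaving out any other library gave 4 to 8 higher and 13 to 28 lower. Adjusted p-values in the following paragraphs are from edgeR's quasi-likelihood test over all genes. The 12 lists and the markers were chosen with earlier results of these data known. The called genes named from each list are those with its lowest adjusted p. Shares and p-values of list genes are therefore a description and no independent support.

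Upstream of FOXO, in the path from the insulin receptor to AKT, 2 of 30 tested genes rose and 2 fell (median -0.045), 6.67% in each direction and near the shares of all genes. Without siPAIP1 replicate 3, 5 rose and 5 fell (16.7% each, against 11.8% and 12.4% of all genes). GRB10, an adaptor that restrains the insulin receptor, had 1.79, 1.79 and 1.96 FPKM in Ctrl and 5.21, 5.67 and 5.37 FPKM in siPAIP1 (log2 fold change 1.53, SE 0.082, edgeR adjusted p = 0.00085). AKT1, the kinase that phosphorylates FOXO factors, had 22.39 to 23.45 FPKM in Ctrl and 36.42 to 40.23 FPKM in siPAIP1 (0.70, SE 0.093, edgeR adjusted p = 0.00566). Both were well above Ctrl in every siPAIP1 library. PIK3R3, a regulatory subunit of PI3-kinase, fell (-0.50, SE 0.072, edgeR adjusted p = 0.00705), as did the catalytic subunit PIK3CB (-0.42, SE 0.089, edgeR adjusted p = 0.0258). The calls of GRB10, AKT1 and PIK3R3 held under all 14 alternatives, and that of PIK3CB was lost under 8, among them leaving out any library but siPAIP1 replicate 3. INSR, the receptor itself, had 4.50, 5.75 and 4.70 FPKM in Ctrl and 4.21, 4.28 and 5.86 FPKM in siPAIP1.

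Among 24 tested partners and regulators of the FOXO factors, 1 rose and 1 fell (median 0.015), 4.17% in each direction and below the shares of all genes. Without siPAIP1 replicate 3, 4 rose (16.7%, against 11.8% of all genes) and 6 fell (25%, against 12.4%). YWHAG, a 14-3-3 protein, rose from 31.31 to 32.41 FPKM to 38.79 to 42.27 FPKM (log2 fold change 0.33, SE 0.064, edgeR adjusted p = 0.0191). SGK1, a kinase that phosphorylates FOXO factors in parallel with AKT, fell from 0.97 to 1.20 FPKM to 0.57 to 0.82 FPKM (-0.67, SE 0.14, edgeR adjusted p = 0.0239). Each call was lost when any 1 Ctrl replicate or siPAIP1 replicate 2 was left out, that of YWHAG also without siPAIP1 replicate 1 or with no filter, and that of SGK1 also in both FPKM-based fits.

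Of 32 tested FOXO targets outside metabolism, which serve antioxidant defence, growth arrest, cell death and autophagy, 10 fell (31.2%, against 6.20% of all genes) and 3 rose (9.38%, against 5.68%), with a median of -0.17. Without siPAIP1 replicate 3, 13 fell (40.6%, against 12.4% of all genes) and 5 rose (15.6%, against 11.8%). CAT, the catalase that breaks down hydrogen peroxide, fell from 39.06, 35.64 and 39.12 FPKM to 23.65, 22.84 and 15.60 FPKM (log2 fold change -0.91, SE 0.12, edgeR adjusted p = 0.00617). CITED2, a transcriptional coregulator, fell by 0.73 on the log2 scale (SE 0.12, edgeR adjusted p = 0.011), GADD45B, a stress and growth-arrest gene, by 0.50 (SE 0.080, edgeR adjusted p = 0.0104), and GABARAPL1, an autophagy protein, by 0.50 (SE 0.084, edgeR adjusted p = 0.0119). The call of CAT held under all 14 alternatives. The calls of the other genes named were lost without Ctrl replicate 3, those of GADD45B and GABARAPL1 also without Ctrl replicate 1, that of CITED2 without Ctrl replicate 2, and those of CITED2 and GADD45B without siPAIP1 replicate 2. GABARAPL1 was also lost in both FPKM-based fits.

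Of 20 tested genes of gluconeogenesis and fasting metabolism, 5 fell (25%, against 6.20% of all genes) and 2 rose (10%, against 5.68%), with a median of -0.25. Leaving out siPAIP1 replicate 3 gave 10 that fell (50%, against 12.4%) and 3 that rose (15%, against 11.8%). PYGL, the liver glycogen phosphorylase, fell from 20.96, 21.27 and 21.15 FPKM to 15.80, 14.79 and 12.83 FPKM (log2 fold change -0.58, SE 0.072, edgeR adjusted p = 0.00483), under all 14 alternatives too. ANGPTL4, a fasting-induced inhibitor of lipoprotein lipase, fell by 1.34 (SE 0.25, edgeR adjusted p = 0.0166), and GLUD1, the mitochondrial glutamate dehydrogenase, by 0.58 (SE 0.12, edgeR adjusted p = 0.0204). Both calls were lost without any 1 Ctrl replicate, and that of GLUD1 also without siPAIP1 replicate 2 and in both FPKM-based fits. PCK2, the mitochondrial form of the enzyme encoded by PCK1, rose from 39.57, 40.61 and 38.16 FPKM to 61.59, 61.20 and 49.62 FPKM (0.51, SE 0.079, edgeR adjusted p = 0.00861), a call lost without Ctrl replicate 1 or 3. The transcript of the mitochondrial enzyme was thus abundant in every library, against at most 0.05 FPKM for PCK1.

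Among 31 tested regulators of fasting genes, 2 fell (6.45%, near the share of all genes) and 1 rose (median 0.012). Without siPAIP1 replicate 3, 4 fell (12.9%, against 12.4% of all genes) and 2 rose (6.45%, against 11.8%). CREB3L3, a liver transcription factor of fasting, fell from 5.85, 6.47 and 6.71 FPKM to 3.02, 2.46 and 3.05 FPKM (log2 fold change -1.18, SE 0.13, edgeR adjusted p = 0.00299). CEBPA, which activates hepatocyte metabolic genes, fell from 61.96 to 66.56 FPKM to 37.31 to 46.37 FPKM (-0.63, SE 0.076, edgeR adjusted p = 0.0044). Both calls held under all 14 alternatives. NR3C1, the glucocorticoid receptor, passed the test by a small margin (0.34, SE 0.086, edgeR adjusted p = 0.0456), and its call was lost under 12 alternatives, among them leaving out any library but siPAIP1 replicate 3.

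**Figure D4:**
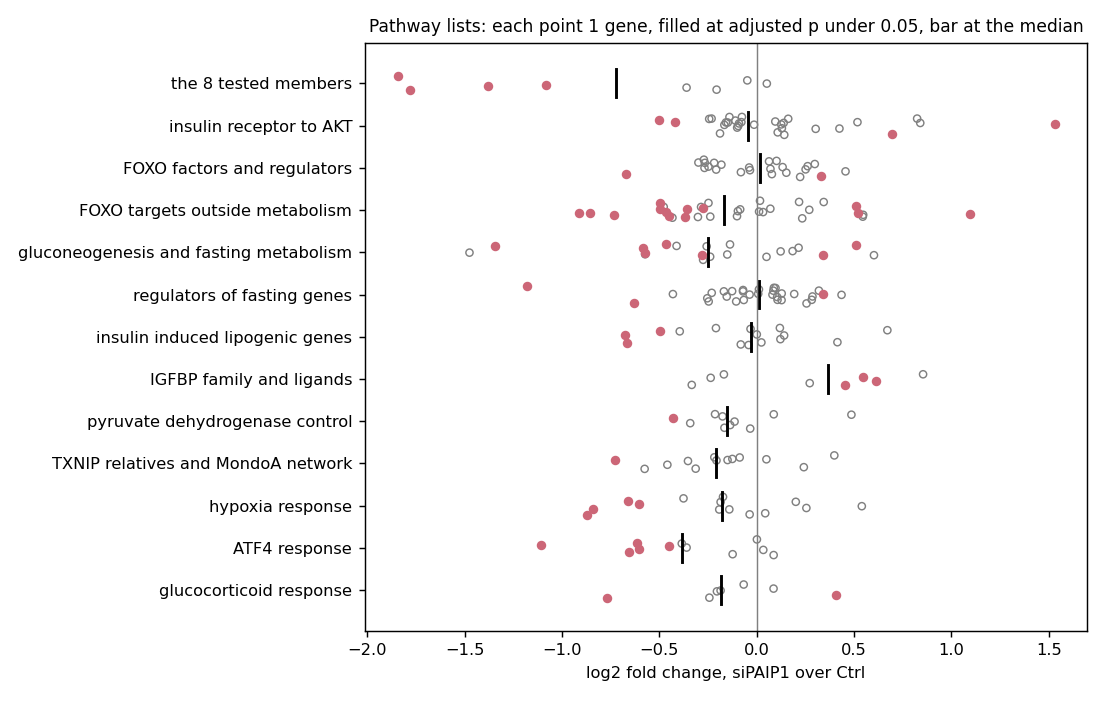
Log2 fold change (siPAIP1 over Ctrl) of every tested gene in the 12 pathway lists and of the 8 tested members. Each point is 1 gene, filled where the adjusted p was under 0.05 in edgeR's quasi-likelihood test, and bars mark list medians. The medians run from -0.38 for the ATF4 response to 0.36 for the IGFBP family and its ligands, and that of the 8 members (-0.72) was set by how they were chosen.

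Lipogenic genes that insulin induces stand on the other arm of the insulin response from the fasting genes. Among 15 tested, 3 fell (20%, against 6.20% of all genes) and 0 rose (against 5.68%), with a median of -0.032. Leaving out siPAIP1 replicate 3 gave 5 that fell (33.3%, against 12.4%) and 0 that rose (against 11.8%). SCD, which desaturates fatty acids, fell from 164.86, 180.36 and 169.12 FPKM to 120.59, 119.24 and 91.58 FPKM (log2 fold change -0.67, SE 0.095, edgeR adjusted p = 0.00679). GPAM, the first enzyme of triglyceride synthesis, fell by 0.68 (SE 0.11, edgeR adjusted p = 0.0109), a call lost without Ctrl replicate 1. PKLR, the liver pyruvate kinase, fell by 0.50 (SE 0.11, edgeR adjusted p = 0.0328), a call lost under 8 alternatives, among them leaving out any library but siPAIP1 replicate 3.

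Around PDK4 and TXNIP, 1 gene of each list passed the test with all 6 libraries. In the control of pyruvate dehydrogenase this was PDHX, a structural subunit of the complex, which fell (-0.43, SE 0.077, edgeR adjusted p = 0.0145). It was 1 of 10 tested (10%, against 6.20% of all genes), with 0 that rose and a median of -0.15. Without siPAIP1 replicate 3, 2 fell (20%, against 12.4%). The PDHX call was lost without any 1 Ctrl replicate or siPAIP1 replicate 2 and in both FPKM-based fits. Among the relatives of TXNIP and the MondoA network of glucose sensing it was TXNRD1, thioredoxin reductase. TXNRD1 was 1 of 13 tested (7.69%, against 6.20% of all genes), with 0 that rose and a median of -0.21. Without siPAIP1 replicate 3, 5 of the 13 fell (38.5%, against 12.4%). TXNRD1 went from 86.03, 78.07 and 94.19 FPKM to 58.45, 55.62 and 45.15 FPKM (-0.73, SE 0.095, edgeR adjusted p = 0.00535) and held under all 14 alternatives.

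IGFBP1 is also induced by hypoxia, by amino acid shortage through ATF4 and by glucocorticoids, so these programmes were read beside it. Of 14 hypoxia genes 4 fell (28.6%, against 6.20% of all genes) and 0 rose (against 5.68%), with a median of -0.18. Leaving out siPAIP1 replicate 3 gave 5 that fell (35.7%, against 12.4%) and 1 that rose (7.14%, against 11.8%). PFKFB4, which makes an activator of glycolysis, fell by 0.66 (SE 0.099, edgeR adjusted p = 0.00793), EGLN3, an oxygen-sensing hydroxylase, by 0.84 (SE 0.14, edgeR adjusted p = 0.0113), P4HA1, a collagen hydroxylase, by 0.60 (SE 0.11, edgeR adjusted p = 0.0148), and CA9, carbonic anhydrase, by 0.87 (SE 0.21, edgeR adjusted p = 0.0383). The call of PFKFB4 held under all 14 alternatives. Those of EGLN3, P4HA1 and CA9 were lost without Ctrl replicate 1 or 3, those of P4HA1 and CA9 also without Ctrl replicate 2, that of CA9 also without siPAIP1 replicate 1 or 2, and that of P4HA1 in both FPKM-based fits.

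Of 11 tested genes of the ATF4 response 5 fell (45.5%, against 6.20% of all genes) and 0 rose (against 5.68%), with a median of -0.38. Leaving out siPAIP1 replicate 3 gave 7 that fell (63.6%, against 12.4%) and 0 that rose (against 11.8%). PCK2, which rose (0.51), and TRIB3, which was not called (0.096), stood in other lists and are not in these counts. VLDLR, a lipoprotein receptor, fell by 1.11 on the log2 scale (SE 0.11, edgeR adjusted p = 0.00261), NUPR1, a stress-induced chromatin protein, by 0.66 (SE 0.070, edgeR adjusted p = 0.00299), PHGDH, which opens serine synthesis, by 0.60 (SE 0.072, edgeR adjusted p = 0.00414), and SLC3A2, a subunit of amino acid transporters, by 0.61 (SE 0.078, edgeR adjusted p = 0.00505). These calls held under all 14 alternatives. Of 7 tested glucocorticoid-induced genes 1 rose and 1 fell (14.3% each, against 5.68% and 6.20% of all genes), with a median of -0.19. Leaving out siPAIP1 replicate 3 gave 1 that rose (14.3%, against 11.8%) and 3 that fell (42.9%, against 12.4%). FKBP5, a chaperone of the glucocorticoid receptor, rose by 0.41 (SE 0.081, edgeR adjusted p = 0.0208), and TSC22D3, an anti-inflammatory target of the receptor, fell by 0.77 (SE 0.18, edgeR adjusted p = 0.0323). Both calls were lost when any library but siPAIP1 replicate 3 was left out, that of FKBP5 also on FPKM with a pseudocount of 1, and that of TSC22D3 also in both FPKM-based fits and with DESeq2.

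Of 14 hepatocyte markers 7 fell, 0 rose and 7 did not pass the test (median log2 fold change -0.45), against 6.20% of all genes that fell. Without siPAIP1 replicate 3, 9 of the 14 fell, against 12.4% of all genes, and the median was -0.32. Their summed level was 7394 to 8141 FPKM in Ctrl and 5226 to 7124 FPKM in siPAIP1. ALB, serum albumin, had 743.96, 684.87 and 701.30 FPKM in Ctrl and 556.82, 448.73 and 279.06 FPKM in siPAIP1, lowest in replicate 3. By this list the labelled cell type was met, since every marker on it was abundant in every library. Of 15 markers of other cell types 12 were in the table and 8 were tested, of which ACTA2, a smooth muscle actin, rose and KRT7, a bile duct keratin, fell, with 1 higher and 2 lower without siPAIP1 replicate 3. Their summed level was 307 to 334 FPKM in Ctrl and 242 to 350 FPKM in siPAIP1. Most of it was LYZ (181.61 to 286.32 FPKM), which had been listed as a leukocyte marker, and the source of its reads was not tested. CDH5, DCN and KRT5 were at most 0.01 FPKM. The part of the lower hepatocyte markers in the lower IGFBP1, C10orf10, PPARGC1A and G6PC was not tested.

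Among 10452 protein-coding genes averaging at least 2 in log2 CPM, the profile of IGFBP1 over the 6 libraries was compared by the root mean square distance of log2 CPM centred on the Ctrl mean. This likeness includes the change between the groups, which chose IGFBP1, so it is a description. The nearest genes were BAAT (0.0836), which conjugates bile acids, C10orf10 (0.113), HSD17B2 (0.128), which inactivates sex steroids, DIO1 (0.144), which activates thyroid hormone, and HAMP (0.151), the iron hormone hepcidin. BAAT had 7.43, 8.23 and 7.68 CPM in Ctrl and 2.04, 2.12 and 2.06 CPM in siPAIP1. HAMP had 39.6, 37.8 and 45.7 CPM in Ctrl and 12.4, 10.1 and 10.5 CPM in siPAIP1. By the fitted fold change all of these nearest genes were at 26.7% to 31.7% of Ctrl. Of the other members, G6PC lay at 0.389 and PPARGC1A at 0.522 from IGFBP1, while IRS2 (1.03), FOXO1 (1.12), TXNIP (1.22) and FOXO3 (1.31) lay farther away.

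**Figure D5:**
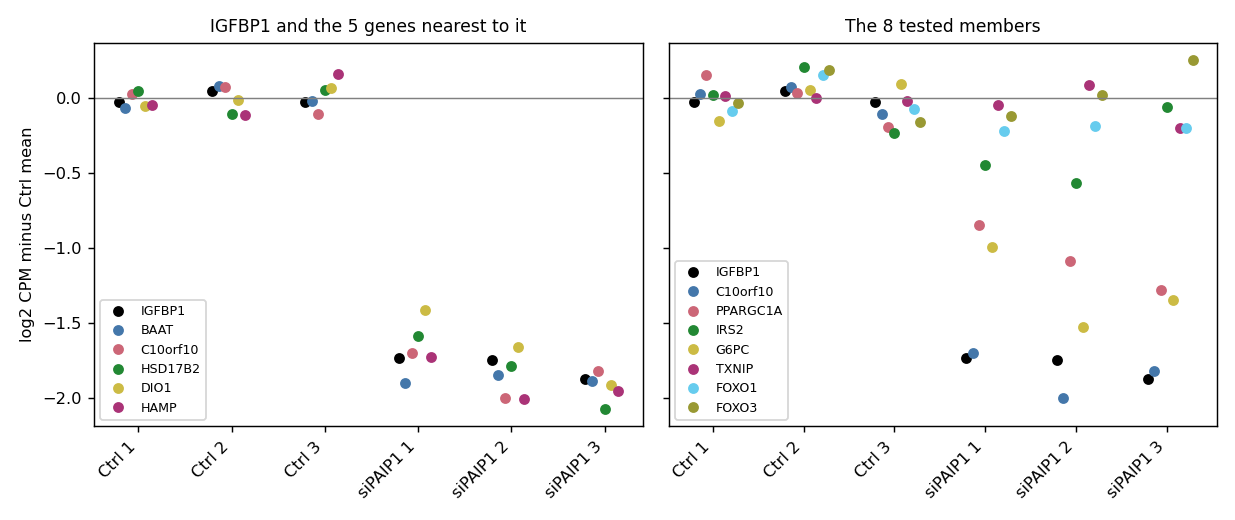
Log2 CPM minus the Ctrl mean in each of the 6 libraries for IGFBP1 and its 5 nearest genes (left) and for the 8 tested members (right). On the left all 6 genes lie far below 0 in siPAIP1, with fitted levels at 26.7% to 31.7% of Ctrl. On the right IGFBP1 and C10orf10 lie lowest, and IRS2 in siPAIP1 replicate 3 lies near its Ctrl level.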

How the data were processed

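The 6 libraries (3 Ctrl, 3 siPAIP1) were prepared by the authors from poly(A) RNA with a directional protocol and sequenced as read pairs. Per the labels and the study's methods, reads were trimmed with FASTX-Toolkit, aligned to GRCh38 with TopHat2, and uniquely mapped reads were kept. The count values deposited by the authors are whole, unnormalized fragments per gene. The FPKM values deposited by the authors are fragments per kilobase of exon, scaled to the mapped fragments of the library, with 2 decimals. Not given in the sources used here are the counting tool, its use of strand and the annotation release.

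Counts were read into R 4.3.3, scaled by TMM and filtered by filterByExpr in edgeR 4.0.16 (15528 of 30987 genes kept), and fitted with glmQLFit and glmQLFTest, with group as the only term and Benjamini-Hochberg adjustment over all genes. Each SE was the size of the log2 fold change divided by the root of its F statistic. Totals of about 29313211 to 34659866 counts limit what can be seen of rare transcripts, and floors cover counting error only. Before use the fit was run on data simulated with the same group sizes, a common dispersion for all genes and no outlying library. That run does not cover a library that stands apart as siPAIP1 replicate 3 does. No pair of libraries was a duplicate (chi-square per degree of freedom at least 3.18).

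Alternatives were RLE and upper-quartile factors, no filter, at least 10 counts in every library of a group, DESeq2 1.42.0, limma 3.58.1 trend on log2(FPKM + 1) and log2(FPKM + 0.1), a replicate block and leaving out each library. Sequences and positions were read with Python 3.11.15 from RefSeq windows (GRCh38.p14), GENCODE 44 and the siRNA list of the study. Figures were drawn with matplotlib 3.10.9.

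The 10 members and all gene lists were chosen with earlier results of these data known. Genes named are the members, PAIP1, up to 4 called genes of each pathway list with the lowest adjusted p, the 5 genes nearest to IGFBP1, the IGFBP family and, with the markers, genes singled out later, with their values known (RASSF4, FOXO3B, INSR, FOXO4, FOXO6, IGF2).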

Additional observations from a re-analysis of the deposited data

How the results depend on the processing

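The members were chosen on these libraries, so how often they were called is a description and no support: IGFBP1 and C10orf10 under all 14 alternatives, PPARGC1A under 12 and G6PC under 7. On FPKM, limma-trend called 2 members lower with either pseudocount, and 533 higher and 436 lower genes in all with a pseudocount of 1 (18 lower and 7 higher in the pathway lists) or 579 and 453 with 0.1 (18 and 8). The median over the members moved to -0.44 with no filter and -0.45 with DESeq2, both of which also fit PCK1 and PDK4, and to -0.18 and -0.53 on FPKM with the pseudocount of 1 and of 0.1. The labels give same-numbered libraries only a number in common and do not say whether they were paired. Correlations of their deviations were 0.26, -0.28 and -0.15. With siPAIP1 replicate 3 standing apart, these cannot show or exclude pairing. The replicate block gave 366 higher and 459 lower genes, 7 and 21 in the pathway lists and 3 members lower, with G6PC no longer called. Of the list genes named above, the block also lost the calls of IGFBP7, PIK3CB, YWHAG, SGK1, ANGPTL4, NR3C1, PKLR, PDHX, CA9, FKBP5 and TSC22D3. With 1 library left out, 187 to 1857 genes were higher and 269 to 1952 lower, with both maxima without siPAIP1 replicate 3, 4 to 24 and 13 to 65 in the pathway lists, 3 to 5 members lower, and a member median of -0.82 to -0.66. TXNIP ranged from -0.12 to 0.018 (above 0 without siPAIP1 replicate 3), and FOXO3 from -0.060 (without siPAIP1 replicate 3) to 0.14, with -0.029 without Ctrl replicate 3. The cause of these changes was not tested. Depth limits G6PC, PCK1 and PDK4.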
